A study of Homo sapiens with 6 samples.

Results

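The Krüppel-like factor genes KLF2, KLF3, KLF4, KLF5, KLF6, KLF7, KLF9, KLF10, KLF11 and KLF13 were taken by symbol from a table of 20263 genes, and all 10 had a row and passed the filter on low counts. The list was chosen by name with the fold changes between CC-885 and DMSO already known, so the changes of its genes are given as a description, without p-values, and support nothing else. The table has 18 KLF genes in all, and the other 8 were used for comparison. RNA was sequenced from HCCLM3 cells, a human hepatocellular carcinoma line with strong metastatic behaviour, after 24 h with CC-885 (3 libraries) or with the vehicle DMSO (3 libraries). The labels name no genetic change in either group, and all libraries come from this single line. CC-885 is a small molecule that binds cereblon and turns its ubiquitin ligase on proteins such as the termination factor GSPT1. The sources used here do not give the dose.

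Krüppel-like factors (KLFs) are DNA-binding proteins with a run of C2H2 zinc fingers at their C-terminus, with which they bind GC-rich and CACCC sequences in promoters. Their N-terminal parts differ and sort the family into members that mostly activate (KLF2, KLF4, KLF5, KLF6, KLF7), members that recruit the corepressor CtBP (KLF3) and members that recruit the Sin3A corepressor (KLF9, KLF10, KLF11, KLF13). Several are quickly induced by serum, stress, shear flow or TGF-beta. In liver cancer KLF6 is known as a growth-restraining factor.

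Total counts ran from 30432509 to 39809131 per library, and the groups lay apart: log2 CPM of libraries correlated at 0.977 or more within groups and at 0.946 or less across them. CPM (counts relative to the library's total) were normalised here with TMM factors (0.967 to 1.06). The labels do not say that replicates were separate cultures, so p-values reflect only how far these libraries spread, which could be technical. A level here is relative to the other RNA of a library, and fewer cells with a transcript cannot be told apart from less of it per cell. Of the hepatocyte and epithelial markers the keratins KRT8 (768 to 954 CPM with CC-885, 1115 to 1388 CPM with DMSO) and KRT18 (593 to 707 and 690 to 822 CPM), whose annotated exons overlap each other, were abundant. The summed level of these markers was lower with CC-885 (1366 to 1658 CPM against 1809 to 2214 CPM), and KRT8 (log2 fold change -0.49, edgeR adjusted p = 0.0236) and HNF4A (-2.50, edgeR adjusted p = 0.00156, at most 53 counts) were called lower. In the same list ALB, AFP, APOB, TTR and GPC3 had 0 counts in every library. A count of 0 in a library allows up to 0.0754 to 0.0986 CPM (3 counts), which covers counting error only. The leukocyte markers PTPRC, CD3E and LYZ were at 0 counts throughout, and the summed CPM of the 5 leukocyte markers was 1.38 to 2.13 with CC-885 and 2.09 to 2.45 with DMSO. The 6 fibroblast markers summed to 152 to 186 and 158 to 189 CPM, and the 5 erythroid markers to 2.76 to 3.23 and 3.11 to 3.96 CPM, in the same order. The fibroblast sum holds called changes in both directions: COL1A1 was higher (log2 fold change 0.58, edgeR adjusted p = 0.00327), while PDGFRB (-2.33, edgeR adjusted p = 8.63e-07) and DCN (-3.23, edgeR adjusted p = 8.21e-05) were lower.

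A large part of the transcriptome differed between the groups, which sets the background for any small family. At an adjusted p below 0.05 (edgeR quasi-likelihood test, 13444 genes tested), 25.8% of genes were higher with CC-885 and 26.8% lower, together 52.6%, and the median log2 fold change was -0.04. Of the 10 KLF genes 8 were past this threshold as higher and 0 as lower, and KLF7 and KLF13 were past it in neither direction. The same 8 had every CC-885 library above every DMSO library in CPM, which held for 29.9% of all tested genes. None of the 10 had every CC-885 library below every DMSO library (31.2% of all tested genes), and 5 of the 10 had a log2 fold change of at least 1 (8.73% of all tested genes). The median log2 fold change of the 10 was 0.95. Nothing is read from these counts, since the comparison was known when the genes were chosen.

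**Figure D1:**
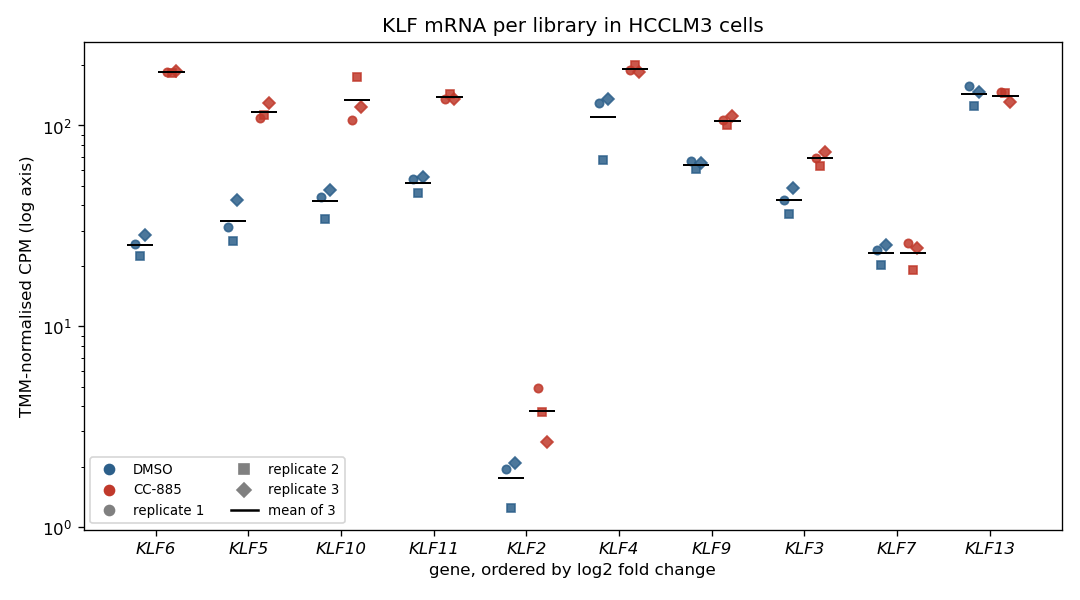
TMM-normalised CPM (log axis) of the 10 KLF genes in each of 3 DMSO (blue) and 3 CC-885 (red) libraries, with bars at the mean, ordered by log2 fold change. The groups are apart for 8 genes, most widely for KLF6 (25.5 against 185 CPM on average), and overlap for KLF7 and KLF13.

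Among the activating members, KLF6 (ENSG00000067082) had the widest gap. Its level was 25.6, 22.4 and 28.5 CPM in the DMSO libraries and 185, 183 and 186 CPM in the CC-885 libraries. The treated libraries were nearly level with each other (coefficient of variation 0.69%), and the lowest of them stood far above the highest control. The log2 fold change was 2.86 (SE 0.14), a ratio of 7.24, and only 0.625% of the tested genes had a log2 fold change as high or higher. Leaving out any library kept it between 2.78 and 2.94. KLF5 (ENSG00000102554), an activator of epithelial growth genes, stood at 31.4, 26.6 and 42.4 CPM with DMSO and at 109, 113 and 129 CPM with CC-885. No CC-885 library came near the controls, although DMSO replicate 3 was higher than the other controls. Its log2 fold change was 1.81 (SE 0.17), and KLF5 ranked 293 from the top among the tested genes.

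KLF4 (ENSG00000136826), a factor of epithelial differentiation and a reprogramming factor, was the most abundant member by length in both groups. It gave 129, 67 and 135 CPM with DMSO and 189, 201 and 185 CPM with CC-885. The groups did not overlap, but DMSO replicate 2 was well below the other controls. That library was the lowest control for every KLF gene of the list, not for KLF4 alone. Leaving it out lowered each of their log2 fold changes, for KLF2 to 0.91, KLF5 to 1.68 and KLF10 to 1.57. The deviation of DMSO replicate 2 was not confined to KLF genes. Over the tested genes, counts of control pairs with this library differed most (chi-square per degree of freedom 82.4 and 161). The pair of DMSO replicates 1 and 3 differed less (52.1). The log2 fold change of KLF4 was 0.80 (SE 0.24) with all libraries and 0.55 (SE 0.09) without DMSO replicate 2. Without CC-885 replicate 2 it was 0.77 (SE 0.28) and no longer past the threshold, the single such loss among the 8 genes under 14 alternative settings. KLF2 (ENSG00000127528), a shear-induced factor of endothelium and of resting lymphocytes, was the scarcest member. Its counts were 75, 46 and 68 with DMSO and 148, 144 and 92 with CC-885, or 1.96, 1.25 and 2.09 CPM against 4.93, 3.74 and 2.67 CPM. The groups were apart, with CC-885 replicate 3 closest to the controls. The log2 fold change was 1.10 (SE 0.28), and it ran from 0.87 to 1.30 over the alternatives. The summed level of 5 endothelial markers was 0.872 to 1.41 CPM in the controls and 3.11 to 4.93 CPM in the treated libraries. In the treated libraries this sum came from CDH5 and VWF alone. KDR was at 0 counts in all libraries, and PECAM1 and TEK were at 0 counts in the treated ones. The part of these markers in the KLF2 values was not tested.

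KLF7 (ENSG00000118263), an activator known from neurons and fat tissue, showed no gap. It stood at 24.1, 20.3 and 25.5 CPM with DMSO and at 26, 19.1 and 24.6 CPM with CC-885, so the groups lay over each other, with replicate 2 lowest in both. Its log2 fold change was -0.01 (SE 0.16).

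The Sin3A-binding members fell into a pair with a wide gap, 1 with a narrower gap and 1 with none. KLF10 (ENSG00000155090), known as TIEG1 and induced early by TGF-beta, gave 44, 34.1 and 47.8 CPM with DMSO and 107, 174 and 123 CPM with CC-885. All CC-885 libraries were above all controls, and CC-885 replicate 2 was well above the other treated libraries. The log2 fold change was 1.68 (SE 0.20), or 1.47 to 1.83 when a library was left out. KLF11 (ENSG00000172059), known as TIEG2, gave 54, 46.3 and 55.4 CPM with DMSO and 135, 143 and 136 CPM with CC-885. Here the libraries of each group were close together, with coefficients of variation of 9.47% and 3.04%. The log2 fold change was 1.41 (SE 0.13). An antisense gene without a row in the table, AC104794.4, shares exon sequence with KLF11 on the opposite strand, and no source says that reads were counted by strand.

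KLF9 (ENSG00000119138), a target of glucocorticoid and thyroid hormone receptors, gave 66.2, 60.9 and 64.7 CPM with DMSO and 106, 100 and 111 CPM with CC-885. The spread within each group was small (4.34% and 5.08%) and the groups were apart. The log2 fold change was 0.72 (SE 0.12). KLF13 (ENSG00000169926), a regulator of the chemokine CCL5 in T cells, gave 157, 125 and 147 CPM with DMSO and 147, 145 and 131 CPM with CC-885. The groups overlapped, and the log2 fold change was -0.02 (SE 0.13).

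KLF3 (ENSG00000109787), which represses through CtBP, gave 42.4, 36.3 and 48.6 CPM with DMSO and 69.1, 63 and 73.5 CPM with CC-885. The groups were apart, and the log2 fold change was 0.69 (SE 0.14), the smallest among the 8 genes past the threshold. KLF3 shares exon sequence with KLF3-AS1 on the opposite strand, a gene without a row in the table. Since no source says that reads were counted by strand, reads from the shared sequence may not be told apart.

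Levels of different genes were compared per length, as counts per kilobase of merged GENCODE 29 exons scaled to the same total in each library (TPM). With DMSO the order from the top was KLF4 (103 ± 31.6 TPM, mean ± SD, n = 3), KLF13 (52 ± 4.97), KLF9 (42.5 ± 1.82), KLF11 (38.8 ± 2.12), KLF10 (35.8 ± 4.38), KLF5 (29.3 ± 5.46), KLF3 (23.1 ± 2.12), KLF6 (14.2 ± 0.938), KLF7 (8.62 ± 0.598) and KLF2 (2.99 ± 0.64). Neighbours from KLF9 down to KLF3 overlapped in range, so their order is not firm, while KLF4, KLF13, KLF6, KLF7 and KLF2 lay apart from their neighbours. With CC-885 the order was KLF4 (187 ± 8.03 TPM), KLF10 (120 ± 30.4), KLF5 (107 ± 9.62), KLF6 (107 ± 0.986), KLF11 (107 ± 2.89), KLF9 (72.7 ± 3.78), KLF13 (53.4 ± 3.27), KLF3 (38.8 ± 3.04), KLF7 (8.94 ± 1.43) and KLF2 (6.69 ± 2.02). KLF10, KLF5, KLF6 and KLF11 overlapped with their neighbours in this order, as did KLF7 and KLF2. KLF13 thus went from rank 2 to rank 7 at a similar level (rank 6, overlapping KLF9, with the longest transcript as length), and KLF6 from rank 8 into the group of 4 genes whose ranges overlap.

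**Figure D2:**
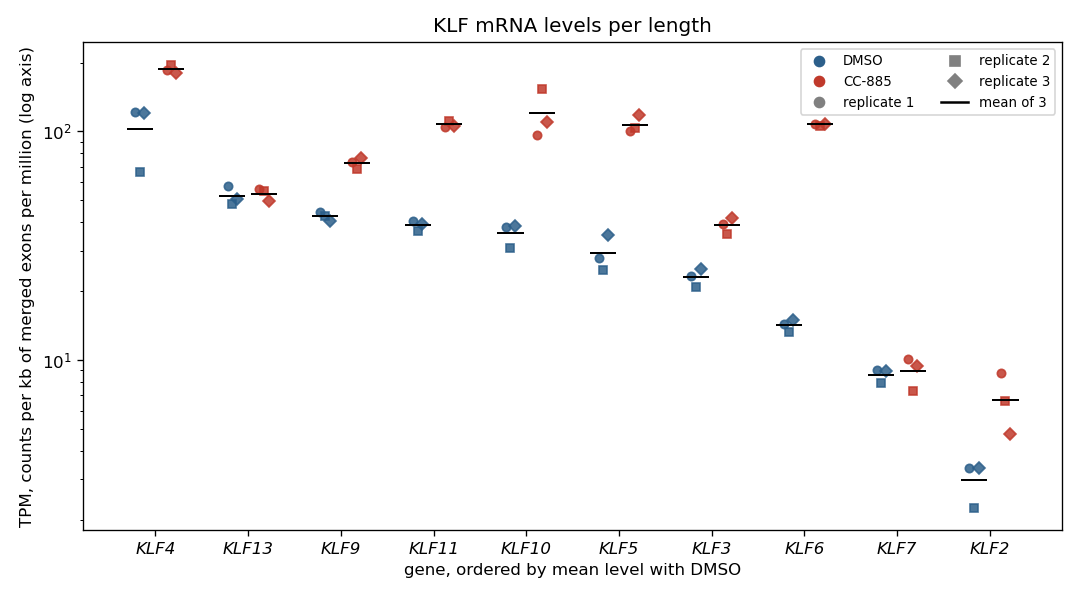
Level per length (TPM, log axis) of the 10 KLF genes in each library, ordered by the mean with DMSO (blue); CC-885 is red and bars are means of 3. KLF4 is highest in both groups (103 and 187 TPM), and KLF6 moves from 14.2 TPM into the range of KLF5, KLF10 and KLF11.

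Summed over all 18 KLF genes, the level was 398 ± 50.8 TPM with DMSO (339 to 429) and 884 ± 31.6 TPM with CC-885 (860 to 920; mean ± SD, n = 3). The 10 genes made up at least 86.4% of this sum in every DMSO library and at least 90.9% in every CC-885 library. The make-up differed between the groups. KLF6 held 3.36 to 3.89% of the family's sum with DMSO and 11.5 to 12.5% with CC-885, and KLF5 held 6.5 to 8.31% and 11.2 to 13.6%. KLF13 held 11.9 to 14.1% with DMSO and 5.71 to 6.5% with CC-885. KLF4 held 19.5 to 28.4% and 20.6 to 21.5%, ranges that overlap. These sums follow from the values that chose the genes and are not tested.

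**Figure D3:**
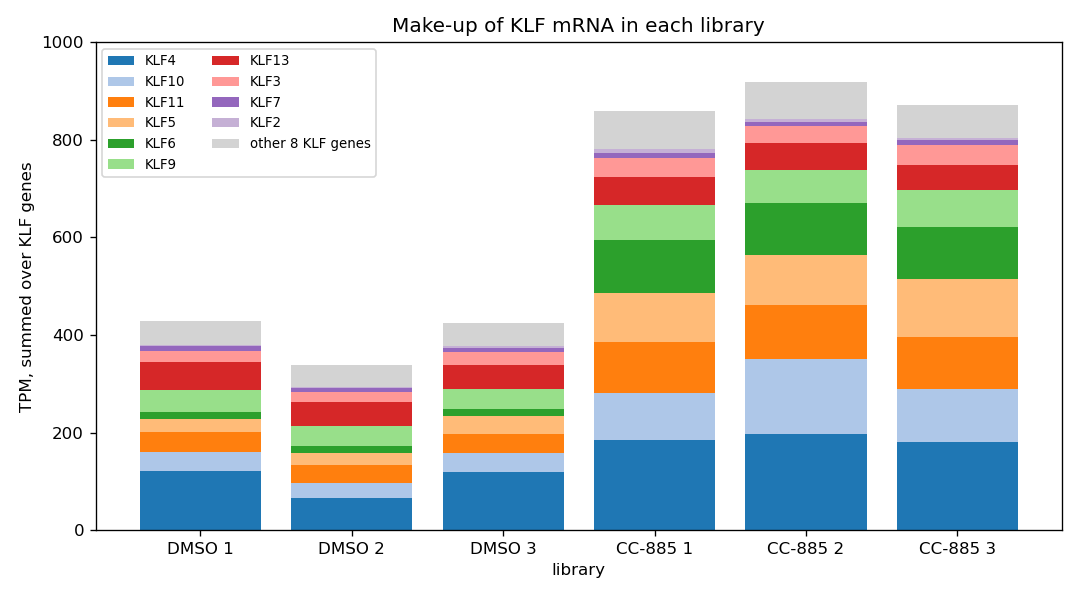
Stacked TPM of the 10 KLF genes and of the other 8 KLF genes together (grey), with 1 bar per library. The 3 DMSO bars end between 339 and 429 TPM and the 3 CC-885 bars between 860 and 920 TPM. The bands of KLF4, KLF5, KLF6, KLF10 and KLF11, among others, are wider with CC-885.

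Sequence before the transcription start is shown for KLF6, KLF2, KLF4, KLF11 and KLF9, which were higher, and for KLF13, whose groups overlapped, so that the promoters can be set side by side. The stretches are from RefSeq (GRCh38.p14), run 5′ to 3′ on the strand of the gene within 250 bases before a start, and leave out bases in annotated exons. Capitals mark an E-box (CACGTG, bound by basic helix-loop-helix factors), a cAMP response element (TGACGTCA, bound by CREB and ATF factors) or a MEF2 site. KLF5, which was higher, and KLF7, whose groups overlapped, also had windows but are not shown. A window of KLF7 held an E-box, and the windows of KLF5 held no match to these marked motifs. The stretches shown are therefore no comparison of higher genes with unchanged ones. RefSeq windows were matched for 8 of the 10 genes, KLF3 and KLF10 not among them (13 windows, since some genes have several starts), and which start these cells use was not measured.
KLF6 (chr10:3785282-3785459, minus strand): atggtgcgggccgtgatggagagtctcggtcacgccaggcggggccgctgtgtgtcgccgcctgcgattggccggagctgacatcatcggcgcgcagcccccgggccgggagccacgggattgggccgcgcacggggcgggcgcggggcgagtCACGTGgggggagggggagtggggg
KLF2 (chr19:16324576-16324816, plus strand): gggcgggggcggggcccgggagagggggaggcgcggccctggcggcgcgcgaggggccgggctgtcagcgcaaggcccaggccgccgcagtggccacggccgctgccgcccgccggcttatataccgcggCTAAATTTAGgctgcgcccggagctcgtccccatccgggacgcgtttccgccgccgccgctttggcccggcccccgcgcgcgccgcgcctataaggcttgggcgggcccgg
KLF4 (chr9:107489770-107490019, minus strand): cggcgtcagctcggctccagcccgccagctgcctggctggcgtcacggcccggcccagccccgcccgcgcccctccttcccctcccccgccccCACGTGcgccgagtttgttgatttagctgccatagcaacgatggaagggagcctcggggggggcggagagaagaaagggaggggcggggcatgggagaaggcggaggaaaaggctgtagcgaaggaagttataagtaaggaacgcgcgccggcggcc
KLF11 (chr2:10043971-10044174, plus strand): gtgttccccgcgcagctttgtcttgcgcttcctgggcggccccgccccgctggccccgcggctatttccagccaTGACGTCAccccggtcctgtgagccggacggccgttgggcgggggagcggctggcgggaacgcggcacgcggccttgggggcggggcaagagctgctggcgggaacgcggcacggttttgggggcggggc
KLF9 (chr9:70414658-70414907, minus strand): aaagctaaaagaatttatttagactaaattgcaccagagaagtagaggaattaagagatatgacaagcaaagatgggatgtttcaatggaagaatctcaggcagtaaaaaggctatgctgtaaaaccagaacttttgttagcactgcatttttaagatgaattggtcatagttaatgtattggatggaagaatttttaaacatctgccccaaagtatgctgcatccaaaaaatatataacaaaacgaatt
KLF13 (chr15:31326585-31326834, plus strand): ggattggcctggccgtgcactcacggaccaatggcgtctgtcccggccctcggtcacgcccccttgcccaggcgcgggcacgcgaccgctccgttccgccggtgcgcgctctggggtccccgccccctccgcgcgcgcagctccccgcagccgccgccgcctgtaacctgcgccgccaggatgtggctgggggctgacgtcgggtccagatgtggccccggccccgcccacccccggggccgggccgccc

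The promoters of the higher genes did not share a single motif among the 9 searched on both strands of each window of 300 bases (250 before to 50 after the start). The MEF2 site of KLF2, starting 120 bases before the start, is of a kind held by 0.572% of the 35116 windows of all genes. MEF2 factors are the classical route by which the kinase ERK5 switches on KLF2 and KLF4. KLF4 had no such match in its window, and the cAMP response element (1.85% of all windows) was found in KLF11 alone among the 8 genes with a window. An E-box was found in 4 of the 13 windows, those of KLF4, KLF6, KLF7 and KLF11 (7.26% of all windows). KLF7 also had a CArG box, the site of serum response factor (1.29%). The AP-1 site (TGANTCA, 7.71% of all windows) and the NF-kB site (5.91%) had 0 matches in the 13 windows. The C/EBP-ATF site (TGATGNAA, 3.62%) was matched in KLF7, and the TATA box (TATAAA, 11.5%) in KLF5. The GC box (GGGCGG, 45% of all windows), the kind of sequence that KLF and SP proteins bind, was present in 8 of the 13 windows and in all matched members other than KLF9. The stretch of KLF9 shown is poor in G and C (32.4%) beside that of KLF6 (76.4%) or KLF13 (78.8%). Matches of different motifs overlapped in 0 cases. A match describes letters and shows no binding.

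Of the other 8 KLF genes, a list also drawn up with earlier results of these data known, 5 were expressed enough to be tested. Of these, 40% (2) were higher and 20% (1) lower, beside 25.8% and 26.8% of all tested genes, and 2 did not pass. Nothing is read from so few genes. KLF16, a Sin3A-binding member, rose from 28.3, 23.2 and 29.4 CPM with DMSO to 50, 49.3 and 41.8 CPM under CC-885 (log2 fold change 0.80, SE 0.14, edgeR adjusted p = 0.000699). All CC-885 libraries lay above all controls. An antisense gene shares exon sequence with KLF16. KLF12, a CtBP-binding repressor like KLF3, was higher by a small margin, at 38.2, 37.2 and 39.2 CPM against 26.6, 31.1 and 29.6 CPM (log2 fold change 0.39, SE 0.12, edgeR adjusted p = 0.0202). That call was lost with 1 library fewer in 4 of 6 cases: edgeR adjusted p was 0.0578, 0.0561 and 0.054 when treated replicates 1, 2 and 3 were left out in turn, and 0.0996 without control replicate 1. KLF17 fell from 5.09, 5.04 and 5.65 CPM to 3.16, 3.38 and 2.91 CPM (log2 fold change -0.74, SE 0.18, edgeR adjusted p = 0.0046). KLF1, the erythroid member, did not pass (-0.37, edgeR adjusted p = 0.538), nor did KLF18 (-0.03, edgeR adjusted p = 0.952), both at under 1 CPM. KLF8, KLF14 and KLF15 had at most 8 counts in any library and were not tested.

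SP proteins carry the same kind of zinc fingers and bind the same GC boxes as KLFs. Of 9 SP genes 7 were tested, with 42.9% (3) higher and 14.3% (1) lower, beside 25.8% and 26.8% of all tested genes. Nothing is read from so few genes. SP4 rose from 7.83, 8.06 and 8.32 CPM with DMSO to 23.8, 28.5 and 29.7 CPM under CC-885 (log2 fold change 1.76, SE 0.15, edgeR adjusted p = 4.57e-06). SP3 rose from 63.7, 71.3 and 63 CPM to 130, 139 and 154 CPM (log2 fold change 1.10, SE 0.13, edgeR adjusted p = 4.45e-05). In both genes the groups were far apart relative to the spread within them. SP2 was higher (log2 fold change 0.64, edgeR adjusted p = 0.04), a call lost without any CC-885 library (edgeR adjusted p 0.064, 0.0883 and 0.0957 without replicates 1, 2 and 3), without DMSO replicate 1 (0.107) and without DMSO replicate 2 (0.0783). SP1, the most abundant of them, had controls at 265 ± 33.8 CPM and treated libraries at 272 ± 29 CPM (mean ± SD, n = 3; log2 fold change 0.04, SE 0.15, edgeR adjusted p = 0.848). SP5, a WNT target, fell from 74, 76 and 83 counts to 27, 11 and 9 counts (log2 fold change -2.20, SE 0.43, edgeR adjusted p = 0.00138), and the log2 fold change was -2.97 without CC-885 replicate 1. SP6 (-0.32, edgeR adjusted p = 0.144) and SP9 (0.24, edgeR adjusted p = 0.548) did not pass. SP7 had 0 counts in all libraries, and SP8 at most 7.

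Of 15 cofactors through which KLFs act, 33.3% (5) were higher and 20% (3) lower, near the shares of all tested genes (25.8% and 26.8%), and the median log2 fold change was 0.19. The acetyltransferases EP300 and CREBBP, which activating KLFs recruit, were higher. EP300 rose from 98.3, 74.2 and 132 CPM to 190, 217 and 225 CPM (log2 fold change 1.05, SE 0.19, edgeR adjusted p = 0.00104) and CREBBP by 0.99 (SE 0.23, edgeR adjusted p = 0.00534). KAT2B, another acetyltransferase of the list, did not pass (0.18, edgeR adjusted p = 0.324). SIN3A, the scaffold used by KLF9, KLF10, KLF11 and KLF13, rose from 84.2, 67.4 and 83.3 CPM to 136, 136 and 137 CPM (log2 fold change 0.80, SE 0.13, edgeR adjusted p = 0.000409). CTBP1, the partner of KLF3 and KLF12, fell from 96, 84.5 and 94.5 CPM to 62.6, 58.1 and 50 CPM (log2 fold change -0.69, SE 0.13, edgeR adjusted p = 0.00112). Its paralog CTBP2 was higher by a small margin, at 122, 124 and 132 CPM against 104, 86.3 and 107 CPM (0.34, SE 0.13, edgeR adjusted p = 0.0425). HDAC1, a deacetylase of the Sin3 complex, fell from 225, 223 and 200 CPM to 123, 123 and 112 CPM (-0.86, SE 0.12, edgeR adjusted p = 0.000202). The acetyltransferase KAT2A was lower by a small margin (-0.38, edgeR adjusted p = 0.0253), and did not pass when treated replicate 2 or 3 was left out (edgeR adjusted p 0.117 and 0.0796) or control replicate 1 or 3 (0.0772 and 0.0665). With any single CC-885 library or DMSO replicate 1 left out, 3 cofactors were higher. CTBP2 and KAT2B were named after their values were seen. EP300, SIN3A, CTBP1, CTBP2 and KAT2A share exon sequence with another annotated gene.

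Among 15 genes of the signalling routes that induce KLFs, 40% (6) were higher and 6.67% (1) lower (median log2 fold change 0.35). The shares of all tested genes were 25.8% and 26.8%. The list was drawn up with earlier results of these data known, so nothing is read from these counts. SRF, the serum response factor, rose from 136, 110 and 155 CPM to 278, 289 and 272 CPM (log2 fold change 1.06, SE 0.15, edgeR adjusted p = 0.000154). MEF2D rose from 77, 58.5 and 108 CPM to 210, 171 and 173 CPM (1.19, SE 0.21, edgeR adjusted p = 0.000928), and MEF2A by 0.89 (SE 0.13, edgeR adjusted p = 0.000258). The kinases ahead of them, MAP2K5 (0.35, edgeR adjusted p = 0.118) and MAPK7, which encodes ERK5 (0.31, edgeR adjusted p = 0.135), did not pass. MEF2C was lower from about 1 CPM (log2 fold change -1.26, SE 0.48, edgeR adjusted p = 0.0432), a weak call that the DESeq2 Wald test (adjusted p = 0.0521) did not make. It was also lost when treated replicate 1 or 3 was left out (edgeR adjusted p 0.0864 and 0.0714) or control replicate 1 or 2 (0.113 and 0.0991). MEF2A, MEF2C and MAPK7 share exon sequence with genes on the opposite strand.

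Of 8 genes whose products mark KLF proteins for degradation or spare them from it, 50% (4) were higher and 0 lower (1 lower when counts were scaled by library size only). The shares of all tested genes were 25.8% and 26.8%, and the list median log2 fold change was 0.21. This list too was drawn up with earlier results known, so nothing is read from these counts. SMURF1, a ligase for KLF2, rose from 68.8, 50.5 and 77.8 CPM to 174, 186 and 174 CPM (log2 fold change 1.44, SE 0.16, edgeR adjusted p = 3.47e-05), and overlaps TRRAP on the opposite strand. BTRC, an F-box protein that takes up KLF4, rose from 53.1, 50 and 54.9 CPM to 105, 119 and 114 CPM (1.09, SE 0.12, edgeR adjusted p = 2.89e-05). FBXW7, the F-box protein for KLF5, rose by 0.85 (SE 0.15, edgeR adjusted p = 0.000654), and overlaps an antisense gene. These are mRNA counts, and KLF protein was not measured here.

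Of 16 tested genes described elsewhere as KLF targets, 31.2% (5) were higher and 31.2% (5) lower, near the shares of all tested genes (25.8% and 26.8%), and the median log2 fold change was -0.17. ATF3, a stress-induced factor reported as a target of KLF6, rose from 13.8, 19.1 and 14.9 CPM to 359, 455 and 366 CPM (log2 fold change 4.62, SE 0.19, edgeR adjusted p = 4.44e-08). S1PR1, a sphingosine phosphate receptor under KLF2 in lymphocytes, rose from 2.25, 1.53 and 3.22 CPM to 11.3, 11.6 and 11.6 CPM (2.30, SE 0.24, edgeR adjusted p = 2.07e-05). SMAD7, the feedback inhibitor of TGF-beta signalling that KLF10 and KLF11 are known to repress, rose by 0.51 (SE 0.13, edgeR adjusted p = 0.00594). Among the lower genes, FGFBP1, a carrier of fibroblast growth factors and a target that KLF5 activates, fell from 19.3, 30.3 and 14.2 CPM to 4.1, 3.09 and 4.18 CPM (log2 fold change -2.49, SE 0.28, edgeR adjusted p = 9.46e-05). PDGFA, another growth factor gene under KLF5, fell by 0.63 on the log2 scale (SE 0.15, edgeR adjusted p = 0.00552). PLAU, the urokinase gene, fell from 5.82, 6.16 and 5.13 CPM to 2.5, 1.4 and 2.12 CPM (-1.51, SE 0.23, edgeR adjusted p = 0.000276), and shares exon sequence with C10orf55. CDKN1A, the cell cycle inhibitor that KLF4 and KLF6 activate, did not pass: its CC-885 libraries gave 81.5, 90.1 and 173 CPM, on both sides of the controls at 136, 131 and 120 CPM (log2 fold change -0.17, SE 0.28, edgeR adjusted p = 0.638). CCND1, a cyclin gene repressed by KLF4, also did not pass (0.09, edgeR adjusted p = 0.608). CDKN1A and CCND1 share exon sequence with genes on the opposite strand. CDKN1A, CCND1, MAPK7 and MAP2K5 were named after their values were seen.

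**Figure D4:**
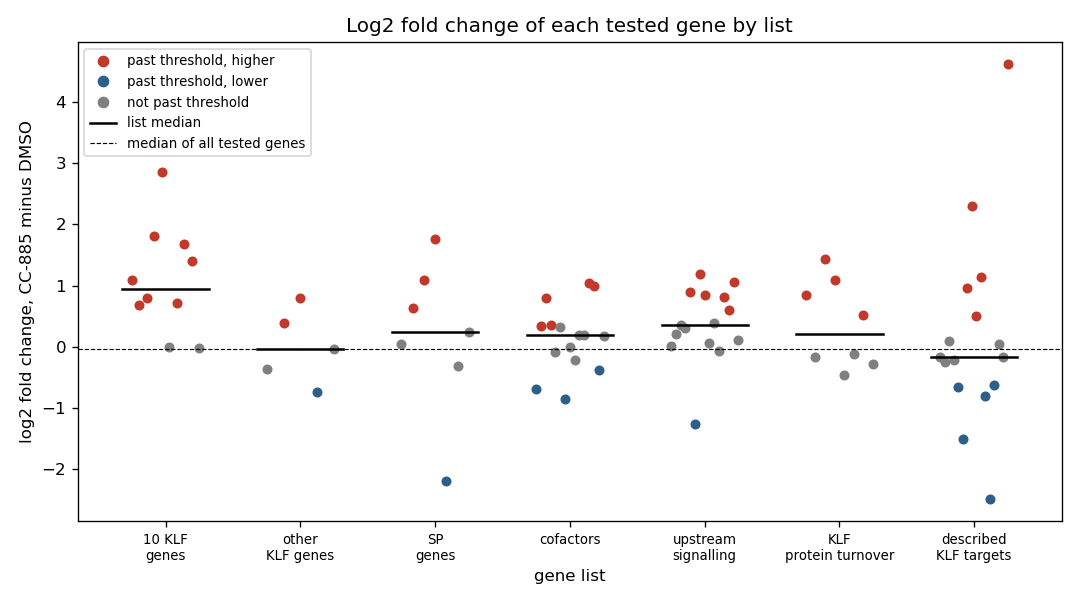
Log2 fold change (CC-885 minus DMSO) of each tested gene, by list; red and blue points are past the threshold as higher and lower, bars are list medians, and the dashed line is the median of all tested genes (-0.04). The 10 KLF genes reach from -0.02 to 2.86, and the described targets spread from -2.49 to 4.62.

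Genes whose values ran most like those of a KLF gene were found by the root mean square difference of log2 CPM, each gene centred on its own mean, over the 6 libraries and against 10802 genes with a mean of at least 5 CPM. The 6 libraries fall into 2 groups, so any gene with a like fold change scores well. Closest to KLF6 were TSC22D2 (difference 0.0775), CCDC137 (0.103) and ZSWIM4 (0.111), which went from 32.3, 13.2 and 16 CPM on average to 222, 90.6 and 108 CPM. Closest to KLF4 were C15orf39 (0.0779), MED12 (0.0799) and PRAG1 (0.087), with log2 fold changes of 0.87, 0.76 and 0.88. Closest to KLF13 were CDH24 (0.0234), ARAP1 (0.0274) and EIF3F (0.0279), with log2 fold changes of -0.03, -0.07 and -0.04.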

How the data were processed

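RNA-seq gene counts of 6 HCCLM3 libraries were used, 3 with CC-885 and 3 with DMSO, with groups and replicate numbers from the sample titles. Per the file header, the authors deposited 1 table of whole-number counts per gene, not normalised, with 1 column per library. The sources used here name no aligner, counter or annotation. GRCm38 and mm10, both of mouse, are the builds in the submitters' processing notes, but the rows are human Ensembl identifiers. Names came from a table of gene names (20148 rows) or GENCODE 29 (76), and 39 had none. Low counts (1 to 20) were even in 65.5 to 67.8% of cases, and no source says if single reads or fragments were counted.

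Counts were fitted with edgeR 4.0.16 (R 4.3.3): TMM factors, filterByExpr with a minimum count of 10, a robust quasi-likelihood F test without covariates, and Benjamini-Hochberg adjustment over 13444 genes. Each SE is approximate, derived from the log2 fold change and its F statistic. The fit was tested on simulated counts in which only a small part of the genes changed, unlike in these data. The share of false calls there was above the nominal level when each gene had its own dispersion. Since that share depends on how many genes change, it does not carry over to these data. Adjusted p-values near the threshold are still taken as weak. The members and lists were chosen with earlier results of these data known. Named genes were the KLF and SP genes, up to 3 higher and 3 lower genes per list by smallest p, and the 3 genes most like the KLF gene with the highest level per length, the largest positive and the largest negative fold change. No set test was run. Alternatives were DESeq2 1.42.0 (size factors and Wald test), library size only, limma-voom (limma 3.58.1), other filters, halved counts, a replicate block and each library left out. No gene coordinates are given from the counts, whose build is uncertain.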

Additional observations from a re-analysis of the deposited data

How the results depend on the processing

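The 8 KLF genes past the threshold kept a positive log2 fold change under all 14 alternatives, and 7 or 8 of the 10 were called higher, while KLF7 (-0.09 to 0.12) and KLF13 (-0.10 to 0.06) lay on both sides of 0. Deviations of same-numbered libraries correlated at 0.0958, 0.0311 and 0.0722, too little to take the numbers as pairs. With the replicate block, 3597 genes were higher and 3676 lower (3471 and 3598 without it), and 8 of the 10 KLF genes were higher. The block ended the call of MEF2C (log2 fold change -1.39, edgeR adjusted p = 0.0522), so 0 upstream genes were then lower. With library size only, 3164 genes were higher and 3956 lower, and the median over all genes was -0.10. In that setting 3 cofactors were higher and 1 turnover gene lower. With a filter at 1 CPM in 3 libraries, 1 turnover gene was lower and 3 described targets higher, where 12391 genes were tested. The DESeq2 Wald test called 0 upstream genes lower. Leaving out each library in turn gave 1 to 2 higher among the other KLF genes, 3 to 6 higher cofactors, 0 to 1 lower upstream genes, 0 to 1 lower turnover genes and 3 to 6 lower described targets. Genes not called changed sign: over the libraries left out, KLF18 ran from -0.31 to 0.26 (0.19 without DMSO replicate 3), SP1 from -0.05 to 0.12 (-0.04 without CC-885 replicate 2, and -0.02 with library size only), and SP9 from -0.02 to 0.52. With longest transcripts as lengths, KLF4 stayed highest (184 TPM with CC-885 and 100 TPM with DMSO), and KLF13 had rank 6 with CC-885 (55.7 TPM), overlapping KLF9 (55 TPM). For other changes the cause was not tested.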

Other observations

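A pair of endothelial markers was higher with CC-885 at low levels, and a link to KLF2 or KLF4 was not tested. CDH5, the VE-cadherin gene, had 6 counts in each DMSO library and 69, 90 and 58 counts with CC-885. VWF gave 0.966, 0.654 and 1.17 CPM with DMSO and 2.63, 1.59 and 1.42 CPM with CC-885. The other 3 endothelial markers did not follow: KDR had 0 counts throughout, and PECAM1 and TEK had 0 counts in the CC-885 libraries. PDGFRB, a receptor gene of fibroblasts and pericytes, was at 76.5, 58.6 and 77.6 CPM with DMSO and 14.3, 14.2 and 13.6 CPM with CC-885. DCN, a matrix proteoglycan gene, had 55, 49 and 28 counts with DMSO and 4, 5 and 4 counts with CC-885. COL1A1, the most abundant of the fibroblast markers, went the other way, from 109, 97 and 105 CPM with DMSO to 157, 170 and 138 CPM. These genes were named after their values were seen.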
